A study of Mus musculus with 6 samples.

Results

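The 10 genes of the CBL and RUNX families named below were followed in marrow cells sorted from mice that are mutant for CBL and RUNX1. The genes were chosen by name from the 28987 mouse genes of the deposited table, because Cbl and Runx1 are the mutated genes of the model. All 10 members were found, and 9 of them passed the filter on low values used for testing. They are the ubiquitin ligase genes Cbl and Cblb, the CBL-binding phosphatase-family genes Ubash3a and Ubash3b, the transcription factor genes Runx1, Runx2 and Runx3, their shared partner gene Cbfb, and the corepressor genes Cbfa2t3 and Runx1t1.

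The series holds 6 RNA-sequencing libraries in 4 groups, all from C57BL/6 mice and all from the mutant clone, so every group carried the CBL and RUNX1 mutations and no unmutated cells served as a reference. Hematopoietic stem and progenitor cells (HSCPs), enriched through the receptor CD117 (gene Kit) and then sorted, gave 1 library from vehicle-treated mice and 1 from mice given Mdivi-1, a compound known as a blocker of the mitochondrial fission protein Drp1. Mutant myeloid cells sorted on Ly6G, a surface protein of the neutrophil lineage, gave 2 libraries per treatment. The labels name neither the alleles, nor how the mutations were introduced, nor the age of the mice or the dose and length of treatment. Marrow was taken from individual mice, but which mouse gave which library is not stated, so p-values measure only how far libraries lie apart. Where HSCP and Ly6G+ cells are compared, the lone HSCP libraries of the 2 treatments serve as replicates of each other. Values for a pair of libraries are given as vehicle then Mdivi-1 in HSCP, and as replicate 1 then 2 within a Ly6G+ arm. The table has 1 value per gene, and transcripts of a mutant allele and of the normal gene cannot be told apart in the rows of Cbl and Runx1. Whether a mutation was carried on an introduced copy, and whether these rows would count its transcripts, is not known.

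As background, CBL proteins attach ubiquitin to activated receptors and tyrosine kinases, which ends their signal and sends many receptors to the lysosome. In blood progenitors the receptors KIT and FLT3 are among their known targets, and CBL mutations found in myeloid neoplasms disturb this brake. RUNX proteins bind DNA through the Runt domain together with the non-DNA-binding partner CBFB. RUNX1 is needed for the first blood stem cells and later for megakaryocyte, lymphoid and myeloid maturation, and corepressors of the ETO family are recruited to many of its sites.

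The sequences that tie the RUNX members to each other are shown first, because they bear on how far reads of these genes can be told apart. The most alike stretches of 90 coding bases within a single exon lie in the part that encodes the Runt domain. They come from GENCODE M21 transcripts, are written 5′ to 3′ on the coding strand, and capitals mark bases that differ from Runx1. The Runx1 stretch is in exon 3 of 8 of Runx1-201 (chr16:92695496-92695585, minus strand, mm10), that of Runx2 in exon 3 of 9 of Runx2-207 (chr17:44735245-44735334, minus strand), and that of Runx3 in exon 2 of 6 of Runx3-201 (chr4:135152955-135153044, plus strand).
Runx1: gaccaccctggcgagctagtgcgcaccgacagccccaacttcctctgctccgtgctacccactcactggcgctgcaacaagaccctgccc
Runx2: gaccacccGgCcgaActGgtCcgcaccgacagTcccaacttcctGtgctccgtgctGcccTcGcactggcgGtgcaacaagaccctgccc
Runx3: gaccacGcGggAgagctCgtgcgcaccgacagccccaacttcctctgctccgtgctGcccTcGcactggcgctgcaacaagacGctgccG

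Runx3 matched Runx1 at 81 of these 90 bases (90.0%), with an unbroken run of 38, and Runx2 matched at 79 (87.8%), with a longest run of 18. For Cbl and Cblb the most alike stretch encodes part of the tyrosine-kinase-binding domain, which docks CBL proteins on their targets. It lies in exon 4 of 16 of Cbl-211 (chr9:44169035-44169124, minus strand) and in exon 5 of 19 of Cblb-203 (chr16:52131117-52131206, plus strand), and 77 of 90 bases were the same (85.6%), with a longest run of 18. Capitals again mark the differences.
Cbl: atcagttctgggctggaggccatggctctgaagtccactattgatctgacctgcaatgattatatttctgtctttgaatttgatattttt
Cblb: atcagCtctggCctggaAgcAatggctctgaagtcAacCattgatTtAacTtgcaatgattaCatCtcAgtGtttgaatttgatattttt

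Over whole transcripts the members were largely distinct. The percentage of 31-base words found in no other gene of GENCODE M21 was 99.21% for Runx1, 98.56% for Runx3, 93.61% for Runx2, 96.62% for Cbl and 100% for Cblb and Cbfb. The lowest of the 10 was that of Runx2, which shared none of these words with another member. Words were shared between members by Runx1, Runx3, Runx1t1, Ubash3a and Cbl.

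The RUNX genes also share a sequence at their distal start sites. The RUNX recognition letters TGTGGT, read on the other strand as ACCACA, were present in 3 of 13 RefSeq promoter windows found for 9 members, each running from 250 bases before to 50 bases after a start (build GRCm38.p6), against 16.8% of all 32851 windows of that length. These 3 windows were the distal windows of Runx1, Runx2 and Runx3. Each held the same 18 bases with ACCACA in tandem, shown in capitals.
Runx1 (chr16:92826025-92826054, minus strand): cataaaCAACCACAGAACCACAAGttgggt
Runx2 (chr17:44814583-44814612, minus strand): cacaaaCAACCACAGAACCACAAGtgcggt
Runx3 (chr4:135120503-135120532, plus strand): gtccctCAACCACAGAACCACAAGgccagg

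The 18 bases began 26 bases after the RefSeq start in Runx1, 21 after it in Runx2 and 136 before it in Runx3. The tandem pair ACCACAGAACCACA was found on either strand in 4 of the 32851 windows (0.0122%). They were those of the 3 RUNX genes and of Gm16225, whose window overlaps that of Runx3 on the opposite strand. Runx2 held a further copy of the 6 letters 80 bases before its start. A match of letters is a description and not evidence of binding, and the gene-level values below do not separate transcripts from the distal and proximal starts of Runx1 or Runx3.

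Levels are given in TPM, a share of all transcripts scaled to a fixed total and corrected for transcript length, which allows genes to be compared with each other. Each library summed to between 963243.1 and 979168.3 TPM, and between 11456 and 11930 genes reached 1 TPM in each. The sort markers differed in the direction of the labels: Kit, the CD117 gene, stood at 64.9 to 72.2 TPM in HSCP and 8.73 to 14.1 in Ly6G+. Ly6g stood at 187 TPM in the vehicle and 90.1 in the Mdivi-1 library of HSCP, and at 642 to 839.8 TPM in Ly6G+. Read totals are lost in this unit, so the depth is unknown and intervals for counting error cannot be given.

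Runx3 had the highest level of the family in every library, followed by Runx1. Runx3 (ENSMUSG00000070691, chr4:135120652-135177990), a factor best known from T cells, natural killer cells and dendritic cells, was at 400.2 and 414 TPM in the HSCP pair. In Ly6G+ it was at 366 and 378 TPM with vehicle and at 383 and 387 with Mdivi-1. These values were close together, and both HSCP libraries lay above all Ly6G+ libraries.

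Runx1 (ENSMUSG00000022952, chr16:92601466-92826149) was at 302 and 349 TPM in the HSCP pair, at 209 and 230.0 in vehicle-treated Ly6G+ cells and at 217 and 184 in Mdivi-1-treated Ly6G+ cells. The HSCP libraries were the higher ones, and the Ly6G+ arms overlapped. Runx2 (ENSMUSG00000039153, chr17:44495987-44814797), the master factor of bone formation that is also expressed in plasmacytoid dendritic cells and myeloid precursors, was far lower, at 22.1 and 21.7 TPM in HSCP, 21.1 and 16.5 in vehicle-treated Ly6G+ cells and 15.3 and 12.7 in Mdivi-1-treated Ly6G+ cells. Its Ly6G+ arms did not overlap, although the vehicle libraries differed from each other by more than the gap between the arms.

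Within each library the division of RUNX transcripts among the 3 genes does not depend on any scaling. Runx3 made up 55.3% and 52.8% of Runx1, Runx2 and Runx3 TPM in the HSCP pair, against 61.4% and 60.5% in vehicle-treated Ly6G+ cells and 62.3% and 66.3% in Mdivi-1-treated Ly6G+ cells. Runx1 made up 41.7% and 44.5% in HSCP and 31.5% to 36.8% in Ly6G+. Runx2 stayed between 2.17% and 3.54% in all 6 libraries. The Runx1 share was thus higher in both HSCP libraries than in any Ly6G+ library, and the Runx3 share lower.

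Cbfb (ENSMUSG00000031885, chr8:105170674-105217989), which stabilises RUNX proteins on DNA, was at 103 and 109.7 TPM in HSCP, 86.9 and 81.3 in vehicle-treated Ly6G+ cells and 90.0 and 88.2 in Mdivi-1-treated Ly6G+ cells. The summed TPM of the 3 RUNX genes was 6.62 to 7.68 times that of Cbfb across the 6 libraries. The ranges of that ratio overlapped between the populations, with 7.01 and 7.15 in HSCP. Both the highest and the lowest ratio were in Ly6G+ libraries.

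Of the ETO-family corepressors, Cbfa2t3 was expressed and Runx1t1 hardly at all. Cbfa2t3 (ENSMUSG00000006362, chr8:122625141-122699109), which encodes a corepressor of stem cell, erythroid and megakaryocyte complexes, was at 26.7 and 21.1 TPM in the HSCP pair. In Ly6G+ it was at 16.5 and 14.9 TPM with vehicle and at 9.89 and 9.52 with Mdivi-1, so the arms did not overlap and HSCP lay above both. Runx1t1 (ENSMUSG00000006586, chr4:13743436-13893649), the mouse gene whose human counterpart is fused to RUNX1 in some acute leukemias, was between 0.0298 and 0.0921 TPM in the 6 libraries and was not tested. The remaining gene of that family, Cbfa2t2, was at 7.03 and 9.12 TPM in HSCP and between 5.09 and 5.93 in Ly6G+.

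Cbl was the main CBL ligase transcript. Cbl (ENSMUSG00000034342, chr9:44142976-44234049) was at 105 and 119.9 TPM in the HSCP pair, at 135 and 144 in vehicle-treated Ly6G+ cells and at 146 and 139.7 in Mdivi-1-treated Ly6G+ cells. Both HSCP libraries were below all Ly6G+ libraries, and the Ly6G+ arms overlapped. Cblb (ENSMUSG00000022637, chr16:52031225-52208048), best known as a brake on T cell activation, was at 5.61 and 6.04 TPM in HSCP, 3.38 and 3.50 in vehicle-treated Ly6G+ cells and 5.07 and 4.84 in Mdivi-1-treated Ly6G+ cells. The vehicle Ly6G+ libraries were thus the lowest and HSCP the highest. The third ligase gene, Cblc, is listed at 0 in every library.

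The ratio of Cbl to Cblb separated the groups. It was 18.8 and 19.8 in the HSCP pair, 39.9 and 41.1 in vehicle-treated Ly6G+ cells and 28.8 and 28.9 in Mdivi-1-treated Ly6G+ cells. The 2 libraries of each Ly6G+ arm were close to each other, and the arms did not overlap. Between these arms the ratio mostly restates Cblb, a low gene that did not pass (limma adjusted p = 0.108), since Cbl overlapped. Levels of single genes had arms without overlap for 57.7% of all genes tested. With 2 libraries against 2 no exact permutation test of such a ratio can reach the 0.05 threshold, so it is given as a description.

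Ubash3a and Ubash3b encode proteins of the STS/TULA family that bind CBL and dampen signalling of tyrosine kinases, and their order changed between the populations. Ubash3a (ENSMUSG00000042345, chr17:31207873-31246892), in textbooks a lymphoid gene, was at 26.4 and 26.7 TPM in HSCP, 7.73 and 7.44 in vehicle-treated Ly6G+ cells and 6.82 and 7.68 in Mdivi-1-treated Ly6G+ cells. Ubash3b (ENSMUSG00000032020, chr9:41011098-41161697), the phosphatase known as STS-1, was at 20.1 and 16.1 TPM in HSCP, 21.2 and 20.8 in vehicle-treated Ly6G+ cells and 15.8 and 16.7 in Mdivi-1-treated Ly6G+ cells. The ratio of Ubash3b to Ubash3a was below 1 in HSCP (0.763 and 0.603) and above it in Ly6G+, at 2.74 and 2.80 with vehicle and 2.31 and 2.17 with Mdivi-1.

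**Figure D1:**
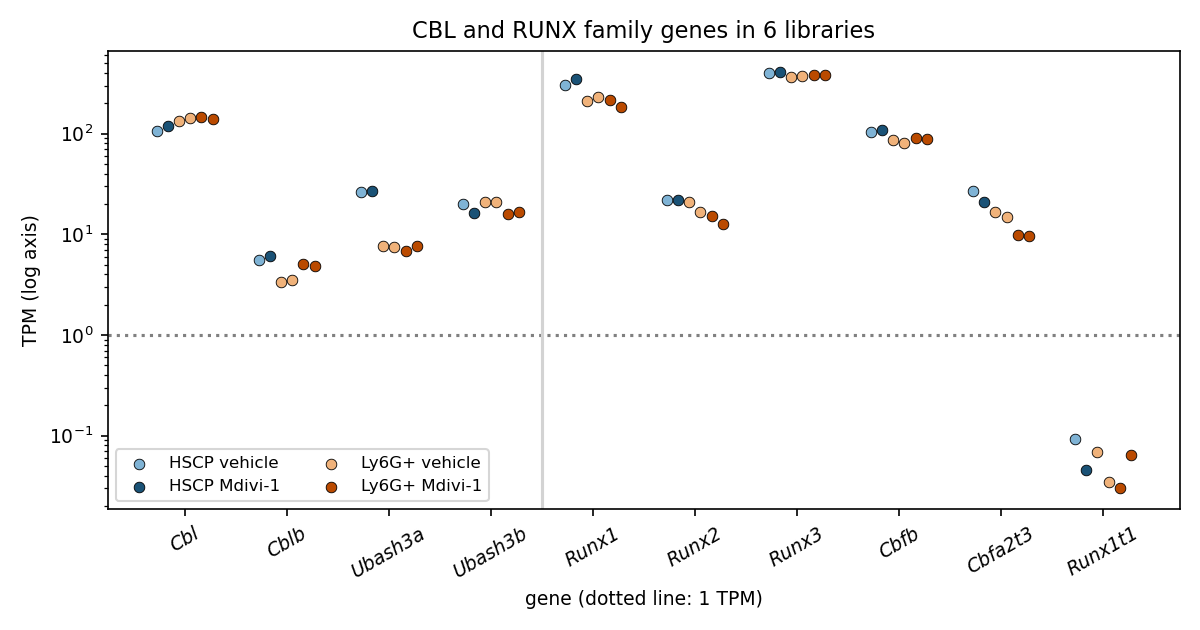
TPM of each of the 10 genes (log axis) in the 6 libraries, 1 point per library, coloured by group, with the dotted line at 1 TPM. Runx3 lies above the others in every library, Ubash3a is near 26 TPM in HSCP only, and Runx1t1 stays below 0.1 TPM.

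**Figure D2:**
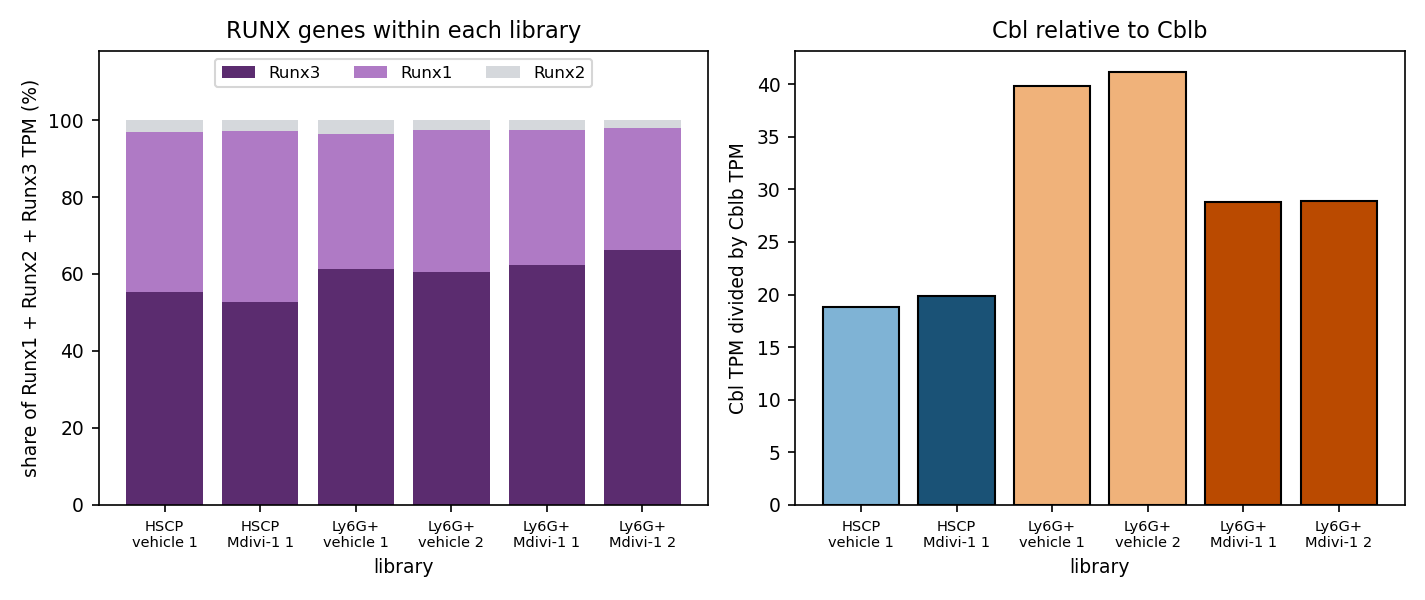
Left, the share (%) of Runx3, Runx1 and Runx2 in their summed TPM in each library. Right, Cbl TPM divided by Cblb TPM in each library, with bars from 0. The ratio is near 19 in HSCP, about 40 in vehicle-treated Ly6G+ cells and 28.8 to 28.9 in Mdivi-1-treated Ly6G+ cells.

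Ranked by level, Runx3 and Runx1 stood apart in HSCP and Cbl overlapped with Cbfb. Below them Cbfa2t3 overlapped with both Ubash3a and Runx2, and then came Ubash3b and Cblb with no overlap. In Ly6G+ the order was Runx3, Runx1, Cbl and Cbfb with no overlap between neighbours. Below these, the ranges of Ubash3b (15.8 to 21.2 TPM), Runx2 (12.7 to 21.1) and Cbfa2t3 (9.52 to 16.5) overlapped, and Ubash3a and Cblb were lowest among the members above 1 TPM. Compared with the 11843 genes that averaged at least 1 TPM, Runx3 lay above 97.5% of them, Runx1 above 96.1%, Cbl above 92.2% and Cbfb above 88.3%, while Cblb lay above 21.2%.

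The first comparison asks how Mdivi-1 altered expression in Ly6G+ cells. A single member passed the test, the corepressor gene Cbfa2t3, which fell from 15.7 ± 1.18 to 9.71 ± 0.26 TPM (SD, n = 2 each). Its log2 change was -0.64 with SE 0.09 (95% interval -0.88 to -0.40, limma with Benjamini-Hochberg adjustment over all genes, adjusted p = 0.0287). Changes are differences of log2(TPM + 1), which understates those of low genes such as Cblb. Among the 9 members tested there were 0 rises and 1 fall, and 8 did not pass, beside 6.7% of the 11775 genes tested that passed, 2.46% higher (290) and 4.24% lower (499). After median-of-ratios scaling the split of all genes was 393 higher and 366 lower, and Cbfa2t3 was still the member called. The members' median was -0.06 and that of all genes -0.05.

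In these bulk samples fewer cells of a type and less RNA per cell cannot be told apart, so marker lists of blood cell types are set beside Cbfa2t3. The summed TPM of 8 megakaryocyte markers was 263 and 261 in vehicle-treated Ly6G+ cells against 119.5 and 104 in Mdivi-1-treated Ly6G+ cells, with 7 of 8 lower, and 334 and 166 in the HSCP pair. The sum of 8 stem and progenitor markers was 102 and 105 against 73.0 and 71.9 in Ly6G+, with 2 of 7 tested lower, and that of 7 erythroid markers 1023 and 1135 against 787 and 869, with 1 of 7 lower. In the HSCP pair the sum was 441 and 381 for stem and progenitor markers and 1948 and 1965 for erythroid markers. Of basophil and mast cell markers 5 of 5 were lower, and of 8 dendritic cell markers 4 were lower and 1 higher. Other lists did not share this direction. Of 8 maturing neutrophil markers 4 were higher and 2 lower, and of 6 monocyte markers 1 was higher and 1 lower. Of 8 T and NK cell markers tested 1 was higher and 0 lower, and of 4 primary granule markers 0 passed. Early B cell markers are given below. Of all genes tested 2.46% were higher and 4.24% lower. No marker of these lists was at 0 in every library, and their part in the change of Cbfa2t3 was not tested.

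The call of Cbfa2t3 rests on all 4 libraries and on the prior for the variance. Leaving out any single Ly6G+ library kept the size between -0.57 and -0.71 with adjusted p from 0.0769 to 0.146, and adjusted p was 0.0534 with a plain prior, 0.0749 without a filter and 0.0596 with the replicate number as a block. The count of all genes called was 42 without Ly6G+ vehicle replicate 1, 22 without Ly6G+ vehicle replicate 2, 279 without Ly6G+ Mdivi-1 replicate 1 and 212 without Ly6G+ Mdivi-1 replicate 2.

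The Ly6G+ arms did not overlap for 6 of the 9 members, Cbfa2t3, Cblb, Ubash3b, Runx2, Runx3 and Cbfb, beside 57.7% of all genes tested. Beside Cbfa2t3, the genes Cblb, Ubash3b and Runx2 had an unadjusted p under 0.05 and did not pass after adjustment, which makes 4 of 9 members against 25.7% of all genes (3026 of 11775). For Cblb the means were 3.44 ± 0.0861 and 4.95 ± 0.165 TPM (SD, n = 2) (limma: log2 change 0.42, SE 0.12, adjusted p = 0.108). For Ubash3b they were 21.0 ± 0.243 and 16.2 ± 0.627 TPM (limma: log2 change -0.35, SE 0.07, adjusted p = 0.0631). Runx2 stood at 18.8 ± 3.22 and 14.0 ± 1.87 TPM (limma: log2 change -0.40, SE 0.15, adjusted p = 0.184), and this value was -0.23 without Ly6G+ vehicle replicate 1 and -0.57 without Ly6G+ vehicle replicate 2.

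For the mutated genes themselves the intervals included 0. Cbl was at 139 ± 6.57 TPM with vehicle and 143 ± 4.56 with Mdivi-1 (limma: log2 change 0.04, 95% interval -0.12 to 0.20, adjusted p = 0.74). Runx1 was at 219 ± 15.0 and 201 ± 23.2 TPM (limma: log2 change -0.13, 95% interval -0.38 to 0.12, adjusted p = 0.457). That value depended on single libraries, at -0.25 without Ly6G+ Mdivi-1 replicate 1 and -0.015 without Ly6G+ Mdivi-1 replicate 2, at -0.20 without Ly6G+ vehicle replicate 1 and -0.063 without Ly6G+ vehicle replicate 2. Runx3 (0.05, 95% interval -0.07 to 0.17), Cbfb (0.08, 95% interval -0.07 to 0.24) and Ubash3a (-0.06, 95% interval -0.34 to 0.22) did not pass either, and these intervals leave room for changes of the sizes they span.

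**Figure D3:**
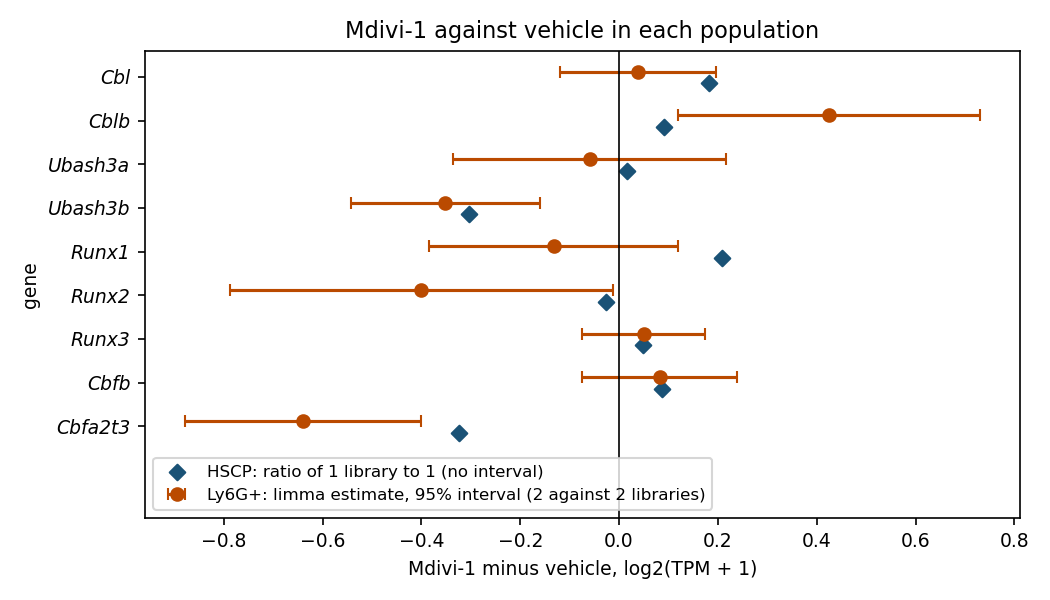
Difference between Mdivi-1 and vehicle on the log2(TPM + 1) scale for the 9 genes tested. Circles with bars are limma estimates with 95% intervals in Ly6G+ (2 libraries against 2) and diamonds are the ratio of the single HSCP libraries, which have no interval. Cbfa2t3 and Ubash3b are below 0 in both populations, and Runx1 is below 0 in Ly6G+ and above 0 in HSCP.

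In HSCP each arm held 1 library, so the difference between treatments has no replicate check and no test. The log2 ratio of Mdivi-1 to vehicle was -0.32 for Cbfa2t3 and -0.30 for Ubash3b, 0.21 for Runx1 and 0.18 for Cbl. It was 0.09 for Cblb and for Cbfb, 0.05 for Runx3, 0.02 for Ubash3a and -0.03 for Runx2. None of the 9 members reached 0.5 in size, a ratio that 6.97% of the 11504 genes at 1 TPM or more in both libraries reached. The sort marker Ly6g had a log2 ratio of -1.04 between the same libraries, and its bearing on the members was not tested.

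Whether the treatment difference itself differed between the populations was tested with an interaction term over all 6 libraries, in which each lone HSCP library is assumed to vary like the Ly6G+ libraries. Of the 9 members 0 passed in limma, 0 had an unadjusted p under 0.05, and 0% of the 12338 genes tested passed, while 1398 of them had an unadjusted p under 0.05. For Runx1 the Ly6G+ difference minus the HSCP difference was -0.34 (95% interval -0.79 to 0.11, limma adjusted p = 0.521). For Cblb it was 0.33 (95% interval -0.18 to 0.85, limma adjusted p = 0.579) and for Cbfa2t3 -0.32 (95% interval -0.72 to 0.08, limma adjusted p = 0.509). These intervals are wide compared with the differences seen within each population.

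The next comparison asks how Ly6G+ cells differ from HSCPs with treatment held as a covariate, and it uses the same Ly6G+ libraries as the treatment comparison. Its error includes any difference of the treatment effect between the populations. The SDs given for each population span both treatments. Cbl was higher in Ly6G+ and Ubash3a, Cbfa2t3 and Runx1 were lower, and these 4 calls held under both other scalings of the libraries. Of the 9 members tested, 1 was higher, 6 were lower and 2 did not pass, beside 72.4% of 12338 genes that passed, 22.2% higher (2736) and 50.3% lower (6202). After median-of-ratios scaling that split was 4095 higher and 4252 lower. The share of members called was thus near that of all genes. Because the median of all genes was -0.35 on TPM as deposited, and moved to -0.02 after median-of-ratios scaling and to -0.14 after upper-quartile scaling, each member is read against that shift. After median-of-ratios scaling 3 members were higher and 3 lower, and after upper-quartile scaling 2 were higher and 3 lower.

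Cbl was at a mean of 113 ± 10.2 TPM (SD) over the 2 HSCP libraries and 141 ± 5.09 over the 4 Ly6G+ libraries (limma: log2 change 0.32, SE 0.07, adjusted p = 0.00406). It became 0.68 (limma, adjusted p = 8.96e-05) once libraries were scaled by median of ratios, so the gene lay further above the typical gene than its raw difference shows. Cblb went the other way, at 5.83 ± 0.305 and 4.19 ± 0.883 TPM (limma: log2 change -0.41, adjusted p = 0.0218). That call was lost with median-of-ratios scaled values (limma: -0.10, adjusted p = 0.502), after upper-quartile scaling (limma: -0.22, adjusted p = 0.166), without HSCP vehicle replicate 1 (limma: -0.24, adjusted p = 0.193) and without Ly6G+ vehicle replicate 1 (limma: -0.38, adjusted p = 0.0546).

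Ubash3a had the largest difference of the members, 26.5 ± 0.22 TPM in HSCP and 7.42 ± 0.417 in Ly6G+ (limma: log2 change -1.71, SE 0.09, adjusted p = 1.59e-05), and it was -1.37 after median-of-ratios scaling. The sum of 12 T and NK cell markers was 28.8 and 13.4 TPM in the HSCP pair and 15.7 to 18.2 in Ly6G+. In HSCP most of that sum was Nkg7, a cytotoxic granule gene, at 25.4 and 9.36 TPM, and the other 11 markers together stood at 3.37 and 4.01 TPM in HSCP and at 10.02 to 14.5 in Ly6G+. Among 8 such markers that could be tested, Ly6G+ cells had 4 at a higher level and 1 at a lower one. The 4 higher ones, Il2rb, Gzma, Klrb1c and Cd4, reached 1 TPM in Ly6G+ libraries only. They entered the test through the population where they were higher, so their count is no separate result. The part of such cells in the difference of Ubash3a was not tested. Ubash3b overlapped between the populations (limma: 0.03, adjusted p = 0.688) and was called higher in Ly6G+ with median-of-ratios scaled values (limma: 0.38, adjusted p = 0.00348) and after upper-quartile scaling (limma: 0.25, adjusted p = 0.0185).

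Runx1 was at 325 ± 33.3 TPM in HSCP and 209.99 ± 19.3 in Ly6G+ (limma: log2 change -0.63, SE 0.11, adjusted p = 0.00188), which was -0.27 (limma, adjusted p = 0.0382) once libraries were scaled by median of ratios. Cbfa2t3 stood at 23.9 ± 3.93 and 12.7 ± 3.53 TPM (limma: log2 change -0.89, adjusted p = 0.00032), which was -0.55 after that scaling (limma adjusted p = 0.00224). Both genes were therefore lower in Ly6G+ by more than the shift of all genes.

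The other RUNX-complex genes changed their call with the scaling. Cbfb was lower on TPM as deposited (limma: -0.30, adjusted p = 0.00371) but at 0.065 (limma, adjusted p = 0.381) once libraries were scaled by median of ratios. Runx2 (limma: -0.42, adjusted p = 0.0358) was at -0.073 after it (limma adjusted p = 0.653) and at -0.23 without HSCP Mdivi-1 replicate 1 (limma adjusted p = 0.323). Its call was also lost without Ly6G+ vehicle replicate 2, Ly6G+ Mdivi-1 replicate 1 or Ly6G+ Mdivi-1 replicate 2 (limma adjusted p from 0.0541 to 0.0834), with upper-quartile scaled values (-0.20, limma adjusted p = 0.234), with a plain prior (limma adjusted p = 0.0539) and without a filter (limma adjusted p = 0.0748). Runx3 did not pass on TPM as deposited (limma: -0.10, adjusted p = 0.1) and was called higher with median-of-ratios scaled values (limma: 0.26, adjusted p = 0.00525). Their order relative to each other does not depend on scaling: Runx1 was lower relative to Runx3 in every Ly6G+ library (0.476 to 0.608 times Runx3) than in HSCP (0.754 and 0.843 times).

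**Figure D4:**
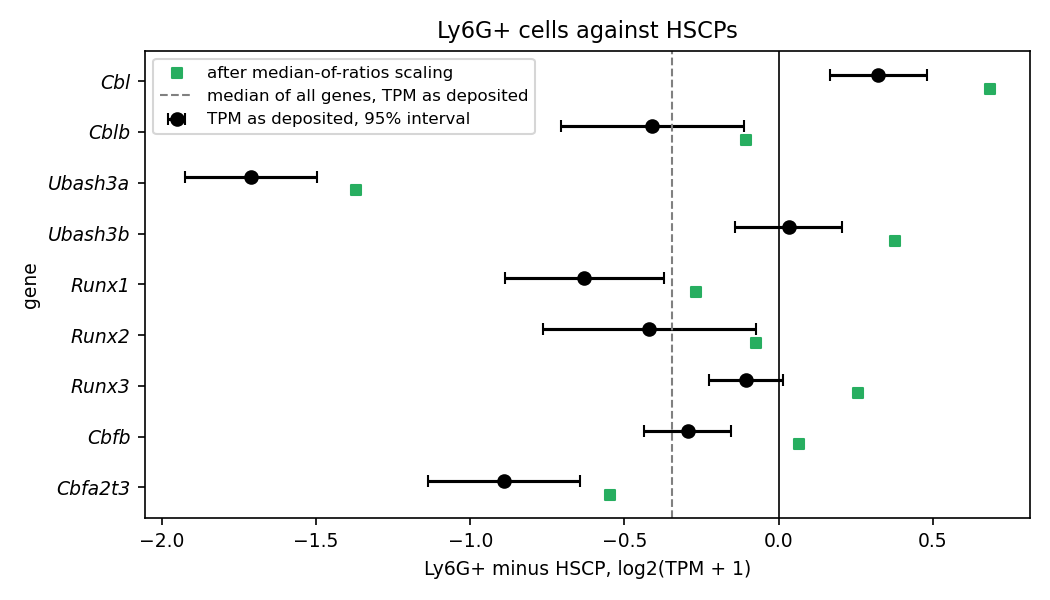
Ly6G+ minus HSCP on the log2(TPM + 1) scale for the 9 genes tested. Circles with bars are limma estimates on TPM as deposited with 95% intervals, squares the estimates after median-of-ratios scaling, and the dashed line the median of all genes on TPM as deposited (-0.35). Runx3 and Cbfb change sign between the scalings, whereas Cbl is above 0 and Ubash3a, Runx1 and Cbfa2t3 are below 0 under both.

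Genes that act with the members were described from 4 lists of 83 genes, of which 82 are in the table. Their counts for Mdivi-1 in Ly6G+ stand beside 2.46% of all genes tested that were higher and 4.24% that were lower. Of the 16 list genes named below as changed by Mdivi-1 in Ly6G+, 0 kept the call without Ly6G+ vehicle replicate 1 or without Ly6G+ vehicle replicate 2 (Ebf1 and Blk then failed the filter), 8 kept it without Ly6G+ Mdivi-1 replicate 1 and 6 without Ly6G+ Mdivi-1 replicate 2. The CBL targets comprise receptors and tyrosine kinases. In Ly6G+ with Mdivi-1, 2 of 16 tested rose, 1 fell and 13 did not pass, with a median of -0.03 beside -0.05 for all genes. Csf3r, the receptor for the neutrophil growth factor G-CSF, was at 385 and 392 TPM with vehicle and at 593 and 542 with Mdivi-1 (limma: log2 change 0.54, adjusted p = 0.0163). Lyn, a SRC-family kinase of myeloid cells, rose by 0.30 (limma adjusted p = 0.0424). Kit was at -0.37 and did not pass (limma adjusted p = 0.223).

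Among 16 CBL adaptors and partners, 1 rose, 2 fell and 13 did not pass, with a median of 0.03. Sla, which encodes the adaptor SLAP that brings CBL to receptors, was at 204 and 205 TPM with vehicle and at 282 and 296 with Mdivi-1 (limma: log2 change 0.50, adjusted p = 0.0134). Sh2b3, the gene of the inhibitory adaptor LNK, fell by 0.41 (limma adjusted p = 0.0298) and Nedd4, another ubiquitin ligase gene, by 0.43 (limma adjusted p = 0.0258). The ubiquitin-conjugating enzyme gene Ube2d3 was at 0.05 (limma adjusted p = 0.621).

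RUNX cofactors and the transcription factors that act with RUNX1 showed 6 falls and 0 rises among 29 tested, with 23 not passing and a median of -0.10. Of all genes tested 4.24% were lower and 2.46% higher. Gata2, a stem and progenitor factor, went from 11.9 and 13.4 to 3.88 and 3.17 TPM (limma: log2 change -1.59, adjusted p = 0.00775). Ets1 fell by 0.69 (limma adjusted p = 0.0118), the adaptor gene Lmo2 by 0.60 (limma adjusted p = 0.0163) and the E-protein gene Tcf3 by 0.56 (limma adjusted p = 0.0232). Gata2 is also a stem cell marker in the list above.

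Of 17 known RUNX1 target genes tested, 8 fell and 0 rose, with a median of -1.01 beside -0.05 for all genes. Of all genes tested 4.24% were lower and 2.46% higher. The target genes that fell included Cd79a, Ebf1 and Blk of B cells, Itga2b, Pf4 and Alox12 of megakaryocytes and platelets, and Prkcq, a kinase gene of T cells and platelets. Cd79a, a chain of the B cell receptor, went from 19.7 and 19.1 to 2.94 and 1.76 TPM (limma: log2 change -2.63, adjusted p = 0.00567). The B cell factor gene Ebf1 fell by 1.46 (limma adjusted p = 0.0185), Itga2b, a platelet integrin gene, by 1.21 (limma adjusted p = 0.00914) and Alox12, a platelet lipoxygenase gene, by 1.14 (limma adjusted p = 0.0126).

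Of these 7, Cd79a, Ebf1, Itga2b and Pf4 are themselves markers in the B cell or megakaryocyte lists, so the target list and those lists are not separate results. The sum of 10 early B cell markers was 161 and 163 TPM in vehicle-treated Ly6G+ cells and 29.2 and 30.3 in Mdivi-1-treated Ly6G+ cells, with 10 of 10 lower and none at 0 in every library, and the part of these cells in the falls was not tested. The myeloid target gene Mpo, encoding myeloperoxidase, was at 661 and 699.6 TPM with vehicle and at 705 and 727 with Mdivi-1, and Spi1, the gene of the myeloid factor PU.1, at 463 and 483 and at 491 and 447 TPM. Those arms did not overlap for Mpo and overlapped for Spi1, and neither gene passed.

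**Figure D5:**
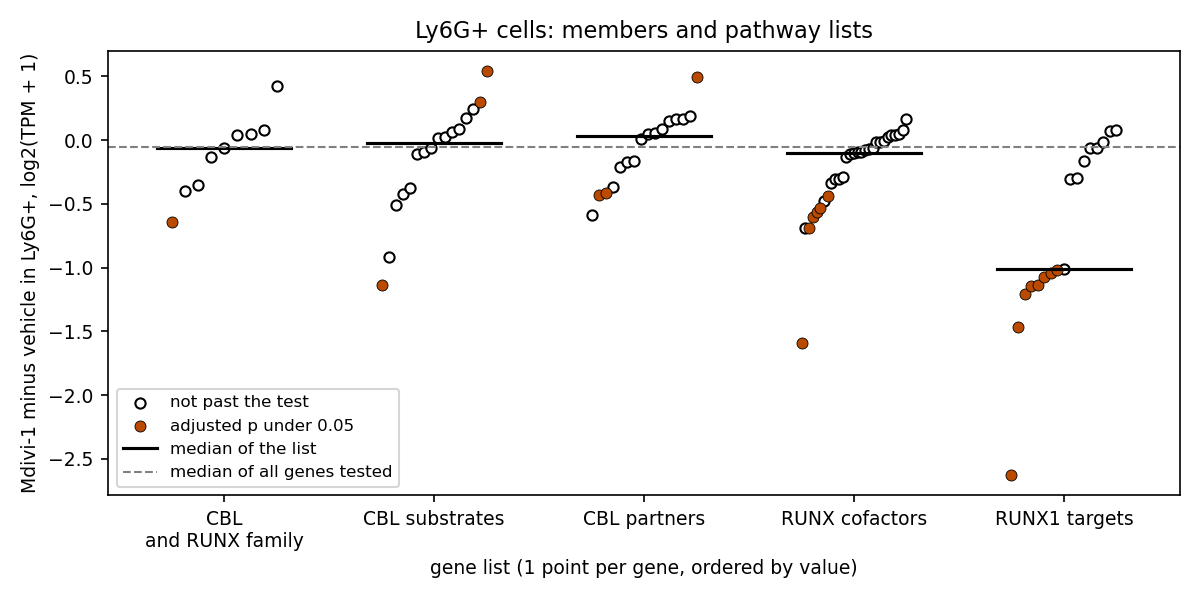
Mdivi-1 minus vehicle in Ly6G+ on the log2(TPM + 1) scale, 1 point per gene tested, for the family and for the 4 lists. Filled points have an adjusted p under 0.05, solid lines are list medians and the dashed line is the median of all genes (-0.05). The target list has its median at -1.01, and the other lists lie near the dashed line.

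Between the populations, the 17 CBL targets tested were 6 higher and 6 lower in Ly6G+. Of all genes 72.4% were called, 22.2% higher and 50.3% lower. Csf3r was at 2.03 (limma adjusted p = 2.4e-05), the phospholipase gene Plcg1 at -1.69 (limma adjusted p = 0.000107) and the erythropoietin receptor gene Epor at -1.51 (limma adjusted p = 0.000258). Kit, counted among the lower genes, was at -2.59, but HSCPs were enriched through its product CD117, so the sort fixed that difference. Pdgfrb, also counted as lower, reached 1 TPM in the HSCP libraries only. The 16 CBL partners were 7 higher and 4 lower, led by Sla at 1.12 (limma adjusted p = 8.51e-05), and by the feedback inhibitor gene Spry2 at -1.02 (limma adjusted p = 0.000306). Sh2b2 was at -0.93 and Nedd4 at -0.74. The list medians were -0.13 and 0.13, beside -0.35 for all genes. After median-of-ratios scaling the partners were 11 higher and 3 lower.

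The 29 RUNX cofactors were 7 higher and 16 lower, with a median of -0.47, beside 22.2% of all genes higher and 50.3% lower. After median-of-ratios scaling the cofactors were 10 higher and 14 lower. Cdk6, a cell cycle kinase gene, was at -1.96 (limma adjusted p = 1.71e-05), Gata2 at -1.91 (limma adjusted p = 0.000334), the blood stem cell factor gene Tal1 at -1.55 (limma adjusted p = 5.92e-05) and Cebpa, a factor of granulocyte commitment, at -1.44 (limma adjusted p = 0.000239). The 17 RUNX1 targets were 5 higher and 9 lower, with a median of -0.51, beside -0.35 for all genes. Mpo (limma: -3.14, adjusted p = 2.58e-06) and the elastase gene Elane (limma: -2.96, adjusted p = 4.87e-06) differed most, followed by the repressor genes Gfi1 (-2.20) and Gfi1b (-1.81). Gfi1b lost its call without either HSCP library or either Ly6G+ Mdivi-1 library.

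Across the 6 libraries, the genes whose profile lay closest to that of Cbl were Eif4g3, Acsl1 and Ripk1, with Euclidean distances of 0.062, 0.089 and 0.092 between centred log2(TPM + 1) profiles. Those closest to Runx1 were Get4, Tusc2 and Mcrip1, at 0.093, 0.096 and 0.098. They were picked from 8739 genes with a mean of at least 5 TPM and an established symbol. The closeness describes these 6 values only, which are dominated by the difference between the populations.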

How the data were processed

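The members and the gene lists were chosen with earlier results of these data known. The 6 RNA libraries came from sorted marrow cells. The submitters' processing notes name kallisto, bcl2fastq, CASAVA 1.8 and build mm10, without their roles. The authors deposited 1 table of 28987 genes in TPM. Its name speaks of counts, but the values are not whole numbers. For kallisto, its version, annotation and strand setting were not given in the sources used here.

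Symbols came from GENCODE M21 (27458 matched), promoter windows from RefSeq (GRCm38.p6). No protein sequences were used here. Values were tested as log2(TPM + 1) with limma 3.58.1 (R 4.3.3), whose variance prior was robust and followed the mean. Genes entered a test when 2 or more of its libraries reached 1 TPM, and Benjamini-Hochberg adjusted p-values were held to 0.05. The Ly6G+ test used 4 libraries (2 residual degrees of freedom), the population test all 6 with treatment as covariate (3), and the interaction test all 6 (2). In simulated tables, 60.5% of genes shifted by 0.5 (log2) and 96.7% of those shifted by 1 were called in the Ly6G+ test over 11775 genes, and 61.8% and 94.1% in the population test over 12338. The shifted genes were drawn only from those averaging above 5 TPM on the log scale, so these rates do not cover lower genes such as Cblb. Unchanged genes made up 10.7% of the calls in the Ly6G+ simulation and 10.7% in that of the populations, above the nominal 5%. The simulations shifted fewer genes than the 6.7% called in Ly6G+ and far fewer than the 72.4% called between the populations. All these rates depend on the share of shifted genes, so they do not describe the calls of the population test.

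All 10 members were named. From each list and test, up to 4 genes were named, first those past the threshold by size of change and then those with the highest mean. Cblc, Cbfa2t2, Kit and Ly6g were always given, and for Cbl and Runx1 the 3 closest profiles. The other genes named, Pf4, Blk, Prkcq, Spi1 and Mpo in the Ly6G+ test, were chosen after their values were seen. Some genes that the rule selects are not reported here. Alternatives covered the prior, pseudocounts of 0.1 and 0.5, no filter or one at 5 TPM, 2 scalings, a block on the replicate number and leaving out each library.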

Additional observations from a re-analysis of the deposited data

How the results depend on the processing

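Of the members called in Ly6G+ under Mdivi-1, the count of 1 became 0 with a plain prior, without a filter, with the replicate block and when any library was left out (0 to 0), each time with Cbfa2t3 at the same sign. The all-gene count of 789 became 346 with a plain prior, 218 without a filter, 325 with the replicate block and 22 to 279 when a library was left out. The labels number the Ly6G+ libraries without tying the numbers to mice. The deviations of same-numbered libraries had a correlation of -0.03 across 11775 genes, so the numbers were not taken as pairs. In the population comparison 6 members were called when any 1 library was left out, against 7, and 7294 to 8587 of all genes, against 8938. In the interaction test 0 genes became 1 with a pseudocount of 0.1 or 0.5, 6 with a filter at 5 TPM, and 0 to 2 when a Ly6G+ library was left out. Leaving out an HSCP library was not run there, since the term then has no estimate.

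Some signs turned, mostly of values near 0. In Ly6G+ treatment, leaving out a library gave -0.0096 to 0.086 for Cbl (lowest without Ly6G+ vehicle replicate 1), -0.13 to 0.016 for Ubash3a (highest without Ly6G+ Mdivi-1 replicate 1) and -0.042 to 0.12 for Cbfa2t2 (below 0 without Ly6G+ vehicle replicate 2 or Ly6G+ Mdivi-1 replicate 1). Between populations Runx3 became 0.26 and 0.12 after median-of-ratios and upper-quartile scaling, and Cbfb 0.065 after the first. In the interaction test median-of-ratios scaling gave 0.014 for Ubash3a, 0.045 for Ubash3b and 0.097 for Cbfb, and upper-quartile scaling 0.046 for Cbfb. There, leaving out a Ly6G+ library gave -0.023 to 0.025 for Runx3 and -0.051 to 0.044 for Cbfb. In HSCP, Ubash3a became -0.0020 after upper-quartile scaling. Spi1 in Ly6G+ treatment became 0.052 and 0.0057 after median-of-ratios and upper-quartile scaling, and -0.081 to 0.056 when a library was left out. Without a change of sign, Runx1t1 in HSCP, a gene below 0.1 TPM, moved from -0.063 to -0.40 with a pseudocount of 0.1. Apart from the scalings, whose shift of the all-gene median is given above, the cause was not tested. Of the 16 list genes named as changed in Ly6G+, 9 kept the call with a plain prior, 8 without a filter, 11 with the replicate block and 0 to 8 when a library was left out. Blk also lost it after median-of-ratios scaling and with a pseudocount of 0.1.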
